A study of Homo sapiens with 6 samples.

Results

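The glycolysis and hypoxia response module is a set of 42 human genes that code for glucose transporters, glycolytic enzymes, lactate handling proteins and targets or regulators of the hypoxia-inducible factors. Members were taken by gene symbol, and all 42 were found among the 60591 genes of the count table. They fall into 23 glycolytic members (transporters and enzymes from glucose to exported lactate) and 19 other hypoxia members. RNA was sequenced from KYSE150, an established cell line of human oesophageal squamous cell carcinoma. In the TPA group (3 libraries) cells kept overnight without serum were given 10 ng/ml of the phorbol ester TPA, which activates protein kinase C, for 24 h. In the DMSO group (3 libraries) cells of the same line were given the solvent, and the labels state no separate dose or time for it. The same protocol, with its serum-free night, stands on the DMSO libraries but describes TPA alone, so starvation of the DMSO cells is implied and not stated. Both groups are of 1 cell line, and the labels give no oxygen level and do not say that libraries came from separate cultures. The p-values below measure the spread between these libraries, which may be technical.

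Glycolysis splits glucose into pyruvate, and lactate dehydrogenase and the monocarboxylate transporters then turn pyruvate into lactate and carry it out of the cell. The hypoxia-inducible factors are pairs of a labile alpha subunit and a stable beta subunit that bind a short DNA core, the hypoxia response element, in front of many of these genes. In oxygen the alpha subunits are hydroxylated by prolyl hydroxylases and degraded, so their activity is set mainly at the protein, which mRNA counts do not show. Squamous carcinomas are known for high glucose uptake, and hypoxia genes such as CA9 are used as tissue markers of low oxygen.

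Library totals ran from 27702329 to 33965547 counts. Levels are given as CPM, counts scaled to the TMM-adjusted size of each library (edgeR's CPM). The libraries did not group by treatment alone: log2 CPM of TPA 1 correlated across genes with DMSO 1 at 0.974 and with TPA 2 at 0.927, while TPA 2 with TPA 3 reached 0.992 and DMSO 2 with DMSO 3 reached 0.993. The log2 ratio of TPA over DMSO also followed transcript GC content in numbers 2 and 3 (Spearman correlation across genes 0.7 and 0.63) and far less in number 1 (-0.12). Results are therefore read from a fit of treatment alone (the unblocked fit), from a fit that adds the library number as a block (the blocked fit), and from the blocked fit with each library's GC trend removed (the GC-corrected fit). All are edgeR quasi-likelihood tests with Benjamini-Hochberg adjustment over all genes tested, and a gene is called at an adjusted p under 0.05. Of the squamous epithelial markers, KRT5 had 66.7, 490.5 and 509 CPM in TPA libraries 1 to 3 and 428, 1736 and 1779.9 CPM in DMSO libraries 1 to 3. TP63, a squamous lineage factor, had 72.1, 101 and 113 CPM in TPA and 156, 279.8 and 224 CPM in DMSO. Neither passed in the unblocked fit (edgeR adjusted p = 0.218 for KRT5 and 0.0752 for TP63), and both fell in the blocked fit (-2.1, 0.00151 and -1.19, 0.0144) and in the GC-corrected fit (-2.48, 0.00101 and -1.21, 0.00308). KRT14 had 6.05, 36.7 and 35.7 CPM in TPA and 6.45, 19.3 and 18.3 CPM in DMSO, and EPCAM had 152, 126 and 131 CPM in TPA and 147, 118 and 115 CPM in DMSO. The part of these marker differences in the members' results was not tested. CDH1 had 734, 1198 and 1179 CPM in TPA and 615, 708 and 662 CPM in DMSO. Summed CPM of the 4 fibroblast markers ran from 2.94 to 10.5 in TPA and 5.17 to 12.2 in DMSO, with DCN at 0 in every library. The sums were 3.26 to 8.22 in TPA and 4.28 to 5.44 in DMSO for the 3 immune markers, and 0.979 to 2.25 in TPA and 2.2 to 2.93 in DMSO for the 3 endothelial markers.

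Of the 42 members, 40 passed the filter on low counts, and 1 of them, ANKRD37, was higher in TPA while 0 were lower in the unblocked fit. Over all 21825 genes tested, 0.861% were called higher and 0.394% lower, so the members' share lies close to that background. In the blocked fit 3 members were higher (ANKRD37, HK1 and SLC2A1), against 4.58% of all genes, and 1 was lower (PDK3), against 6.52%. At an unadjusted p under 0.05 in the unblocked fit, 14 members were higher, against 11.3% of genes, and 1 was lower, against 10.7%. DESeq2 called 8 members higher, against 7.8% of all genes, and 1 lower, against 4.19%. The groups did not overlap in 10 members that were higher in TPA, against 14.3% of all genes, and in 2 that were lower, against 15.2%. Apart from ANKRD37, HK1, SLC2A1 and PDK3, members had fitted log2 fold changes from -0.79 to 0.95. On simulated counts with the spread of the unblocked fit, 2.99% of genes changed 2-fold and 58.2% of genes changed 4-fold were recovered. The simulation changed only 200 genes, picked without regard to the members' levels, so these shares are not carried over to the members. A member that was not called is not shown to be unchanged. Members not tested were CA12, with 7 counts in TPA and 2 in DMSO, and EGLN3, with 9 in TPA and 10 in DMSO.

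**Figure D1:**
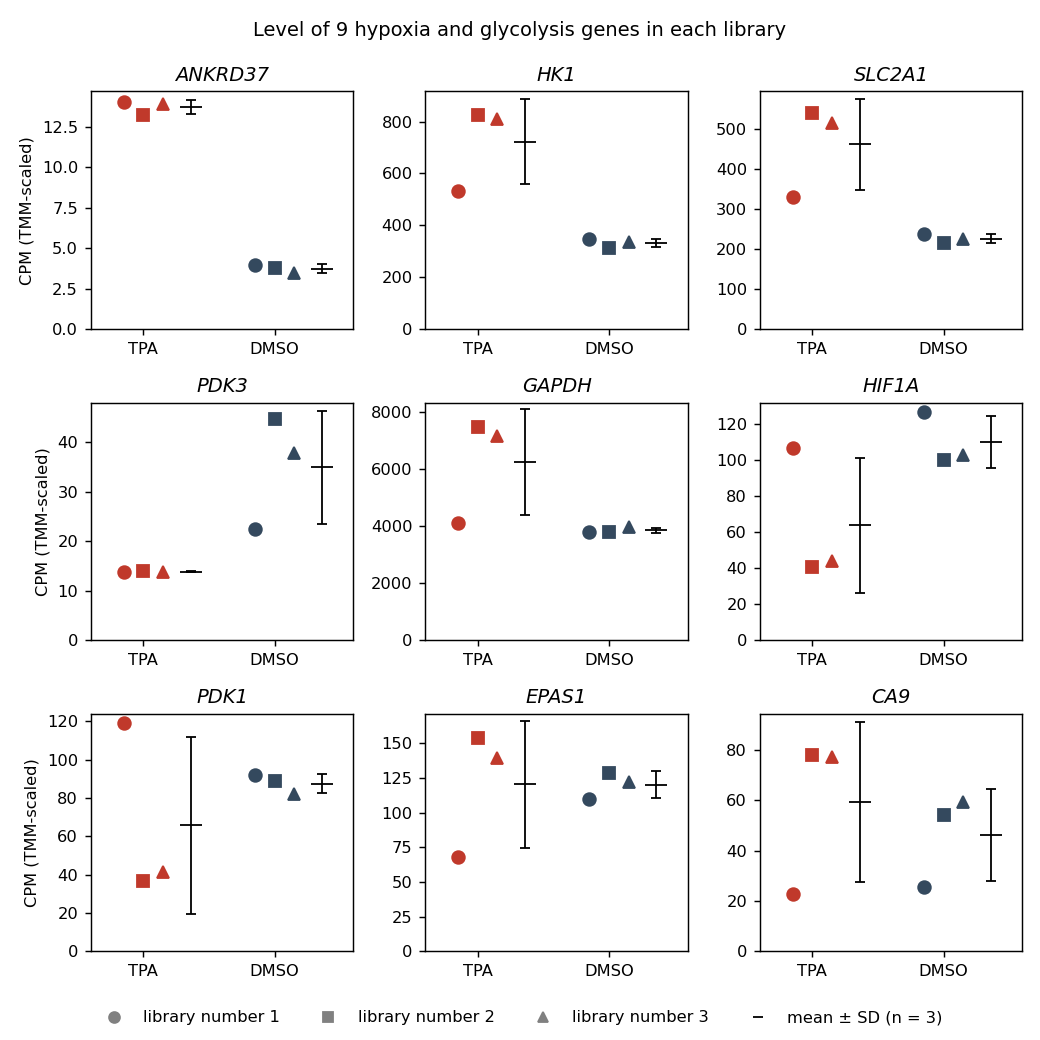
Level of 9 members in CPM (linear axis from 0) in the 3 TPA libraries (left, red) and the 3 DMSO libraries (right, dark), with the library number given by the marker shape and the black bar giving mean ± SD (n = 3). ANKRD37 sits between 13.2 and 14.0 CPM in TPA and between 3.45 and 3.98 CPM in DMSO, whereas GAPDH, HIF1A and PDK1 in TPA 1 lie near the DMSO libraries or beyond them and away from TPA 2 and TPA 3.

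ANKRD37, a small ankyrin repeat protein gene known as a direct hypoxia target (chromosome 4, 185396021 to 185400628, plus strand, GRCh38), had 14.0, 13.2 and 13.9 CPM in TPA libraries 1 to 3, against 3.98, 3.78 and 3.45 CPM in DMSO libraries 1 to 3. The groups did not overlap, and the 3 TPA libraries lay within 1 CPM of each other although they differed widely in other genes. The log2 fold change of ANKRD37 was 1.87 ± 0.22 (SE), a 3.66-fold rise, with an adjusted p of 0.025 in the unblocked fit (edgeR). The GC-corrected fit gave 1.53 (adjusted p = 0.00509). The call was kept without DMSO 1 (edgeR adjusted p = 0.0476) or TPA 1 (0.000412) and lost without TPA 2 (0.0839), TPA 3 (0.111), DMSO 2 (0.234) or DMSO 3 (0.254), where log2 fold changes stayed between 1.83 and 1.91. In the annotation 35.2% of its exon bases also belong to UFSP2 on the other strand, and the strand setting of the counting is not given in the sources used here. UFSP2 had 12.3, 6.18 and 6.75 CPM in TPA and 15.4, 15.5 and 11.3 CPM in DMSO, with overlap and lower means in TPA.

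The 250 bases before the annotated start (RefSeq, GRCh38.p14) are shown for the 4 members called in the unblocked or blocked fit, as the members first described by their values in every library. Capitals mark matches to the hypoxia response element core, searched as ACGTG or GCGTG on both strands, so that a CACGTG holds a match on either strand.
ANKRD37, chr4:185396591-185396840, plus strand: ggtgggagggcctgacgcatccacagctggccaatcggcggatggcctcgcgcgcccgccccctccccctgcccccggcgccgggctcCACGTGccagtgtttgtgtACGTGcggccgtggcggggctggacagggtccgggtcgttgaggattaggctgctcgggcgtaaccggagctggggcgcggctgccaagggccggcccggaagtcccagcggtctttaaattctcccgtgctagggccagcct
SLC2A1, chr1:42958869-42959118, minus strand: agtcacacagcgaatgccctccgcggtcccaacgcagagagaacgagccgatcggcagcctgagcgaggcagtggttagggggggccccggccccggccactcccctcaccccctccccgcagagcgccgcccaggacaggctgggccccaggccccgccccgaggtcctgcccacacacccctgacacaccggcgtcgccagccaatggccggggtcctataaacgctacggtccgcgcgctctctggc
HK1, chr10:69269750-69269999, plus strand: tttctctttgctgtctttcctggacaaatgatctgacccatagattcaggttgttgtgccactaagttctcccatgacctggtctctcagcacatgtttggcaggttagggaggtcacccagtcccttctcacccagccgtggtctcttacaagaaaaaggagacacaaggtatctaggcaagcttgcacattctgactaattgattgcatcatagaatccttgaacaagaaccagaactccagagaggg
PDK3, chrX:24465036-24465285, plus strand: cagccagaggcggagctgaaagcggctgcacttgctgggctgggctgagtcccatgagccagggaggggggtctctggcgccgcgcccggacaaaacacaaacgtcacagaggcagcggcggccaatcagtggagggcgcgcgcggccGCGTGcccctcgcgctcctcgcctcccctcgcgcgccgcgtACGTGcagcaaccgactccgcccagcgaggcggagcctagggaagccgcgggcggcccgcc
ANKRD37 holds 3 matches in these letters, from 1 CACGTG and 1 further ACGTG. PDK3, which was lower in TPA, holds 2, while SLC2A1 and HK1 hold 0. Of 37 members with a promoter of 300 bases (250 before and 50 after the start), 28 held at least 1 match, or 75.7% (95% Wilson interval 59.9 to 86.6), against 48.4% of 27305 promoters in the whole table. The share was 71.4% of 21 glycolytic members and 81.2% of 16 other hypoxia members. With ACGTG alone it was 43.2% of all members and 21.6% of all promoters. The promoters of the whole table were not matched to the members by GC content or type of gene, so these differences are not read as enrichment. LDHA and BNIP3 had the most matches in the 300 bases, with 6 each, where a CACGTG, present in both, counts as 2. A match describes letters only, and the members were chosen as hypoxia and glycolysis genes. Each gene has 1 listed start that may not be the one used in these cells. The listed starts of all 4 members shown lie inside their annotated gene spans. The letters of ANKRD37 and SLC2A1 lie wholly inside the span and those of HK1 and PDK3 in part.

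Among the 4 transporters, SLC2A1, the main glucose importer of many cells (chromosome 1, 42925375 to 42959176), had 331, 540.4 and 516 CPM in TPA and 237, 215 and 226 CPM in DMSO. The groups did not overlap, and TPA 1 lay between the other TPA libraries and the DMSO libraries. The log2 fold change was 1.03 ± 0.24 (edgeR adjusted p = 0.0704), and it passed in the blocked fit (1.0, adjusted p = 0.0339) and in the GC-corrected fit (0.62, adjusted p = 0.0114). SLC2A3, a high-affinity glucose importer, had 86.4, 137 and 146 CPM in TPA and 87.5, 116 and 112 CPM in DMSO, and the groups overlapped (0.23 ± 0.26, edgeR adjusted p = 0.639). The lactate carriers showed opposite values in TPA 2 and TPA 3. SLC16A3, the exporter of glycolytic cells, had 50.1, 128 and 124 CPM in TPA and 42.2, 66.1 and 78.7 CPM in DMSO, and SLC16A1 had 228, 115 and 142 CPM in TPA and 258, 236 and 204 CPM in DMSO. Neither was called in the unblocked, blocked or GC-corrected fit.

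In upper glycolysis, from glucose to the triose phosphates, 0 of 11 members were called in the unblocked fit and HK1 was called in the blocked fit. HK1, a hexokinase that traps glucose in the cell (chromosome 10, 69269984 to 69401884), had 533, 825 and 811 CPM in TPA, against 346, 314 and 335 CPM in DMSO. All TPA libraries lay above all DMSO libraries, with TPA 1 the lowest of them. Its log2 fold change was 1.12 ± 0.22 (edgeR adjusted p = 0.0609), 1.1 in the blocked fit (adjusted p = 0.0235) and 0.77 in the GC-corrected fit (adjusted p = 0.00809). HK2, the hexokinase most often described as hypoxia-induced, also did not overlap, with 321, 328 and 357 CPM in TPA and 261, 224 and 212 CPM in DMSO, but its log2 fold change of 0.53 ± 0.19 did not pass (edgeR adjusted p = 0.159). HK2 also did not pass in the blocked fit (0.53, edgeR adjusted p = 0.142) or the GC-corrected fit (0.29, 0.077). DESeq2 called HK2 higher (adjusted p = 0.0391). The other members DESeq2 called higher were SLC2A1, HK1, ENO2, ANKRD37, P4HA2, BNIP3 and ADM, each at a lower adjusted p, and PDK3 was called lower.

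TPI1, triose phosphate isomerase, had the highest DMSO level per kilobase of exon of the upper steps. TPI1 stood at 505, 1202 and 1122 CPM in TPA and 419.6, 535 and 581 CPM in DMSO, with TPA 1 inside the DMSO range, and passed in the GC-corrected fit (0.41, edgeR adjusted p = 0.0353). PFKP, the platelet-type phosphofructokinase, had 468, 865 and 809.7 CPM in TPA and 437, 412 and 455 CPM in DMSO, without overlap. GPI, PFKL, PFKM and ALDOA (aldolase) had log2 fold changes of 0.45 to 0.55, with both TPA 2 and TPA 3 above every DMSO library, and their GC-corrected values were -0.02 to 0.18. Of the bifunctional enzymes that set fructose bisphosphate signalling, PFKFB4 had 5.22, 16.6 and 15.5 CPM in TPA and 10.0, 20.1 and 20.2 CPM in DMSO. It passed as lower in the GC-corrected fit (-0.92 ± 0.12, edgeR adjusted p = 0.0075), and the groups overlapped through DMSO 1 alone. PFKFB3 had a log2 fold change of 0.27 ± 0.24 and -0.12 with the GC correction, and neither passed. ALDOC, a brain-type aldolase, was low at 1.27 to 4.57 CPM in TPA and 1.94 to 4.66 CPM in DMSO.

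The 6 enzymes of lower glycolysis had positive log2 fold changes of 0.62 to 0.95 in the unblocked fit, and they were positive with every scaling tried, but 0 were called in the unblocked or blocked fit. GAPDH, which is often used as a reference gene, had 4113, 7474 and 7149 CPM in TPA and 3798, 3794 and 3952 CPM in DMSO. The groups did not overlap, but TPA 1 was close to the DMSO libraries (0.7 ± 0.24, edgeR adjusted p = 0.154). ENO2, the neuronal enolase, also did not overlap, with 79.0, 145 and 138 CPM in TPA and 65.4, 59.3 and 62.8 CPM in DMSO (0.95 ± 0.27, edgeR adjusted p = 0.104). PKM, pyruvate kinase, had 1511, 3374 and 3095 CPM in TPA and 1283, 1522 and 1641 CPM in DMSO. PGK1, PGAM1, ENO1 and PKM in TPA 1 were within or below the DMSO range. In the GC-corrected fit ENO2 (0.52, adjusted p = 0.028), PKM (0.38, 0.0451) and PGK1 (1.11, 0.0437) were called higher, while GAPDH, ENO1 and PGAM1 had 0.27, 0.19 and 0.15 and did not pass.

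Set per kilobase of exon, GAPDH was the most abundant member, with 2095 ± 622 CPM per kb in TPA and 1291 ± 30.2 CPM per kb in DMSO (SD, n = 3 each). In DMSO the next in order were ENO1 (214 ± 28.3), TPI1 (189.5 ± 30.8) and PKM (173 ± 21.3), whose neighbours did not differ beyond their SD. LDHA followed at 127 ± 18.4 and PGK1 at 97.1 ± 9.74 CPM per kb. The lowest tested members in DMSO were ALDOC at 1.24 ± 0.504 and LOX at 0.149 ± 0.0866 CPM per kb.

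The lactate dehydrogenase chains and the pyruvate dehydrogenase kinases decide the fate of pyruvate. LDHA had 711, 1230.1 and 1301 CPM in TPA and 659.9, 851 and 864 CPM in DMSO, with overlap. LDHB did not overlap in the other direction, with 161, 131 and 139 CPM in TPA and 169.8, 181 and 188 CPM in DMSO, but was not called (-0.32 ± 0.19, edgeR adjusted p = 0.361) and had 0.03 in the GC-corrected fit. PDK3, a kinase that switches off pyruvate dehydrogenase (chromosome X, 24465221 to 24541862), had 13.8, 13.9 and 13.8 CPM in TPA, against 22.4, 44.7 and 37.7 CPM in DMSO. The TPA libraries were almost equal, and DMSO 1 was the lowest of the DMSO libraries. The log2 fold change was -1.33 ± 0.29 (edgeR adjusted p = 0.0676), and PDK3 fell in the blocked fit (-1.28, adjusted p = 0.0166) and in the GC-corrected fit (-0.94, adjusted p = 0.00689). PDK1, the kinase best known as a hypoxia target, had 119, 36.8 and 41.6 CPM in TPA and 91.9, 88.8 and 81.9 CPM in DMSO, so that TPA 1 was above and TPA 2 and TPA 3 below every DMSO library (-0.41 ± 0.45, edgeR adjusted p = 0.616).

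CA9, the cell-surface carbonic anhydrase used as a hypoxia marker, had 22.7, 78.0 and 77.3 CPM in TPA and 25.4, 54.3 and 59.2 CPM in DMSO, lowest in both libraries numbered 1 (0.36 ± 0.51, edgeR adjusted p = 0.708). In the annotation 38.5% of its exon bases also belong to ARHGEF39 on the other strand, which had 6.09, 15.1 and 14.3 CPM in TPA and 6.78, 13.3 and 11.9 CPM in DMSO. Among the sensors and factors, HIF1A, the alpha subunit that drives most glycolytic hypoxia targets, had 107, 40.4 and 43.8 CPM in TPA and 127, 100.4 and 103 CPM in DMSO. TPA 1 lay inside the DMSO range and the other TPA libraries far below it (-0.79 ± 0.4, edgeR adjusted p = 0.293), and the GC-corrected value was -0.33 (adjusted p = 0.0456). EPAS1, the related alpha subunit, had 68.3, 154 and 139.7 CPM in TPA and 109.6, 129 and 122 CPM in DMSO, with TPA 1 below and TPA 2 and TPA 3 above the DMSO range. Its log2 fold change of 0.01 ± 0.32 turned to -0.26 with library size alone and -0.43 in the GC-corrected fit (edgeR adjusted p = 0.0496). EGLN1, the main prolyl hydroxylase, had 13.8, 8.44 and 10.4 CPM in TPA and 12.1, 11.8 and 11.6 CPM in DMSO.

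Collagen-modifying enzymes differed in direction. P4HA2, a catalytic subunit of collagen prolyl hydroxylase, had 59.5, 73.0 and 72.9 CPM in TPA and 38.4, 42.2 and 41.6 CPM in DMSO without overlap, and was called in the GC-corrected fit (0.48, edgeR adjusted p = 0.0207) but not in the unblocked fit (0.75 ± 0.2, 0.0927). Its sister subunit P4HA1 had 42.9, 23.6 and 24.3 CPM in TPA and 37.3, 47.4 and 39.3 CPM in DMSO. PLOD2, a collagen lysyl hydroxylase, had 65.3, 22.8 and 29 CPM in TPA and 36, 41.4 and 41.9 CPM in DMSO, with TPA 1 the highest and TPA 2 the lowest of all 6 libraries. LOX, lysyl oxidase, stayed under 3 CPM everywhere.

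Beside ANKRD37, BNIP3 and ADM did not overlap between the groups. BNIP3, a mitophagy receptor gene, had 38.0, 38.5 and 39.6 CPM in TPA and 24.9, 22.5 and 21.2 CPM in DMSO. TPA libraries differed by under 2 CPM, yet the log2 fold change of 0.76 ± 0.2 did not pass in the unblocked fit (edgeR adjusted p = 0.0887) or the blocked fit (0.0566), and passed with the GC correction (0.5, 0.0233). ADM, the gene of the vasodilator peptide adrenomedullin, had 60.9, 84.1 and 77.2 CPM in TPA and 44.7, 40.4 and 39.5 CPM in DMSO (0.84 ± 0.22, edgeR adjusted p = 0.0867; GC-corrected 0.45, 0.0213). NDRG1, a stress-induced gene, had 256, 568 and 559.8 CPM in TPA and 217, 282 and 277 CPM in DMSO, and passed in the GC-corrected fit (0.37, edgeR adjusted p = 0.0452). BNIP3L, a paralogue of BNIP3, was highest in TPA 1, with 191, 82.2 and 87.2 CPM in TPA and 105, 90.8 and 84.4 CPM in DMSO. It passed as higher in the GC-corrected fit (0.66, edgeR adjusted p = 0.00989), although TPA 2 lay below the DMSO range and TPA 3 inside it. KDM3A, a histone demethylase gene, had 75.0, 23 and 25.3 CPM in TPA and 59.2, 49.3 and 43.3 CPM in DMSO, and HILPDA, a lipid droplet protein gene, had 11 to 22 CPM in TPA and 12.1 to 19.1 CPM in DMSO.

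Set side by side, the glycolytic members had a median log2 fold change of 0.55 and the other hypoxia members 0.16, while all genes tested had -0.11. Of the 23 glycolytic members 19 had a positive value, and of the 17 other hypoxia members tested 10 did, while 44.0% of all genes tested were positive. With RLE factors the 3 medians were 0.67, 0.27 and -0.01, and with library size alone they were 0.28, -0.11 and -0.36. The glycolytic members stood higher than the other hypoxia members under each scaling, while the median of the other hypoxia members turned negative with library size alone. It was also below 0 with limma-voom (-0.07), in the blocked fit (-0.07), without TPA 1 (-0.03) and without DMSO 1 (-0.02). Summed over the 23 glycolytic members, the level was 11517, 21734 and 20791 CPM in TPA and 10495, 11271 and 11940.1 CPM in DMSO, and GAPDH made up the largest share. Summed over the 19 other hypoxia members it was 1162, 1282 and 1278 CPM in TPA and 968, 1068 and 1025 CPM in DMSO. These are descriptions of chosen genes and carry no test.

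**Figure D2:**
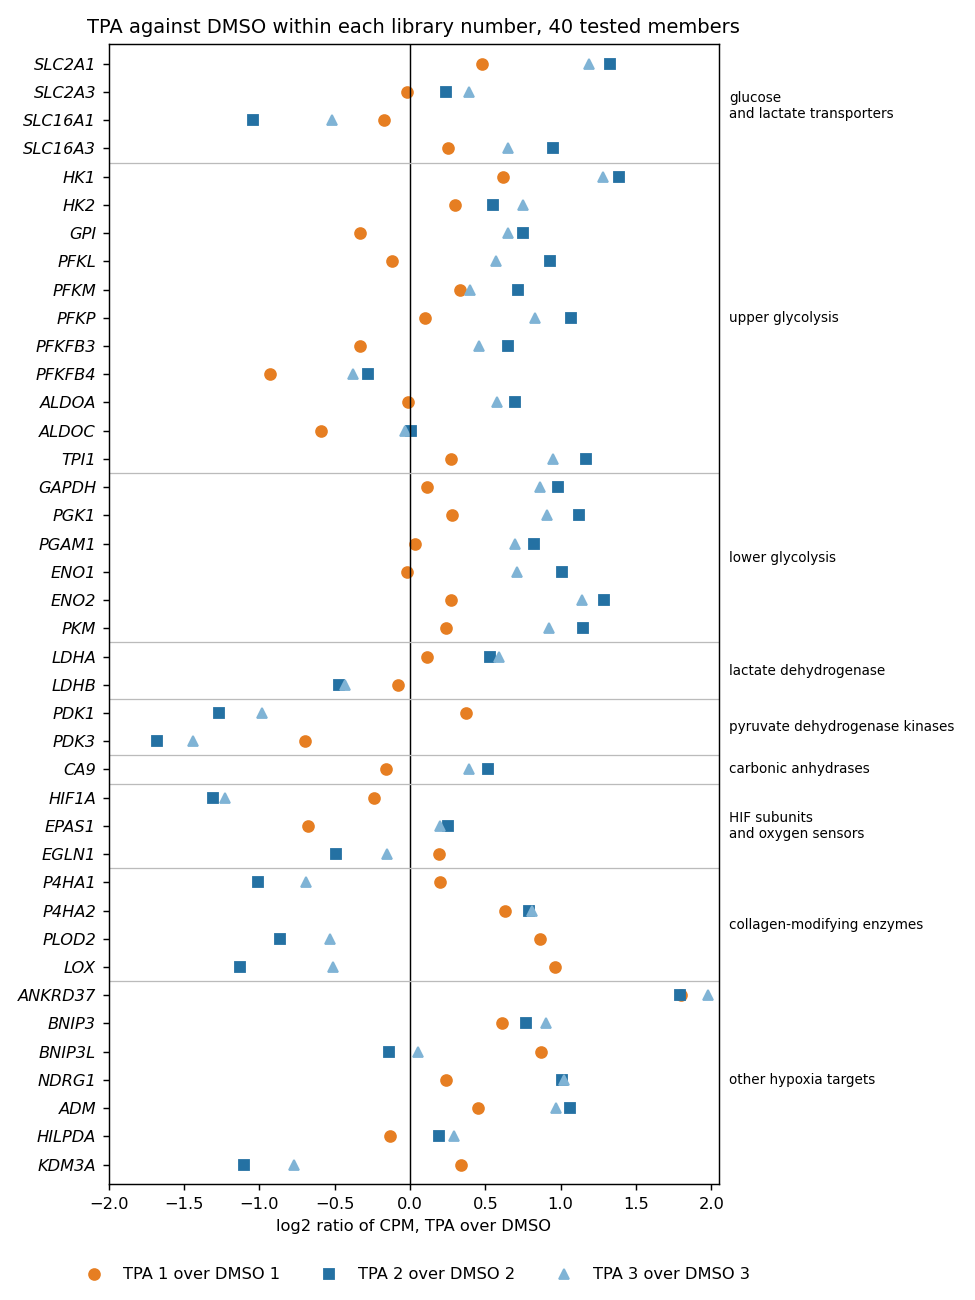
Log2 ratio of CPM, TPA over DMSO (horizontal axis, prior count of 2), of the 40 tested members grouped by role, with 1 marker for each library number. In number 1 the glycolytic members lie around 0 (median 0.1) and in numbers 2 and 3 most lie to the right (medians 0.82 and 0.65), while HIF1A, PDK1, PLOD2 and KDM3A lie to the left in numbers 2 and 3 and ANKRD37 is near 1.8 to 2.0 in each.

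The TPA over DMSO ratios are described here by library number, with no test. In TPA 2 and TPA 3, 27 of the 40 tested members were above every DMSO library, against 31.5% of all genes, and 10 were below, against 40.9%. TPA 1 was above the DMSO range in 16 members, within it in 12 and below it in 12. Of all 21825 genes tested, 7896 were above, 5613 within and 8316 below, so these counts are not read as particular to the members. The median log2 ratio of the glycolytic members was 0.1, 0.82 and 0.65 in numbers 1, 2 and 3, and that of the other hypoxia members was 0.34, -0.14 and 0.05. In number 1 the other hypoxia members thus had the higher median, and in numbers 2 and 3 the glycolytic members had it. Number 1 is 1 library against 1 and has no replicate.

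PDK1 had log2 ratios of 0.37, -1.27 and -0.98 in numbers 1, 2 and 3, PLOD2 had 0.86, -0.86 and -0.53, and KDM3A had 0.34, -1.1 and -0.77. These members were higher in TPA in number 1 and lower in numbers 2 and 3. GPI ran the other way, with -0.33, 0.75 and 0.65. ENO2 (0.27, 1.29 and 1.14) and PKM (0.24, 1.15 and 0.92) were positive in each number and smallest in number 1. ANKRD37 had 1.8, 1.79 and 1.98, P4HA2 0.63, 0.79 and 0.81, and BNIP3 0.61, 0.77 and 0.9, all positive in each number.

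Some members followed the library number in both groups. Both libraries numbered 1 were below the other 4 in 17 members, 13 of them glycolytic, against 20.7% of all genes, and above them in 6, against 21.3%. SLC16A3, PGAM1, PFKFB4, ALDOC, CA9 and HILPDA were among the 17, and HIF1A, PDK1, KDM3A, EGLN1, LOX and BNIP3L were the 6. The labels do not say what the number stands for.

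**Figure D3:**
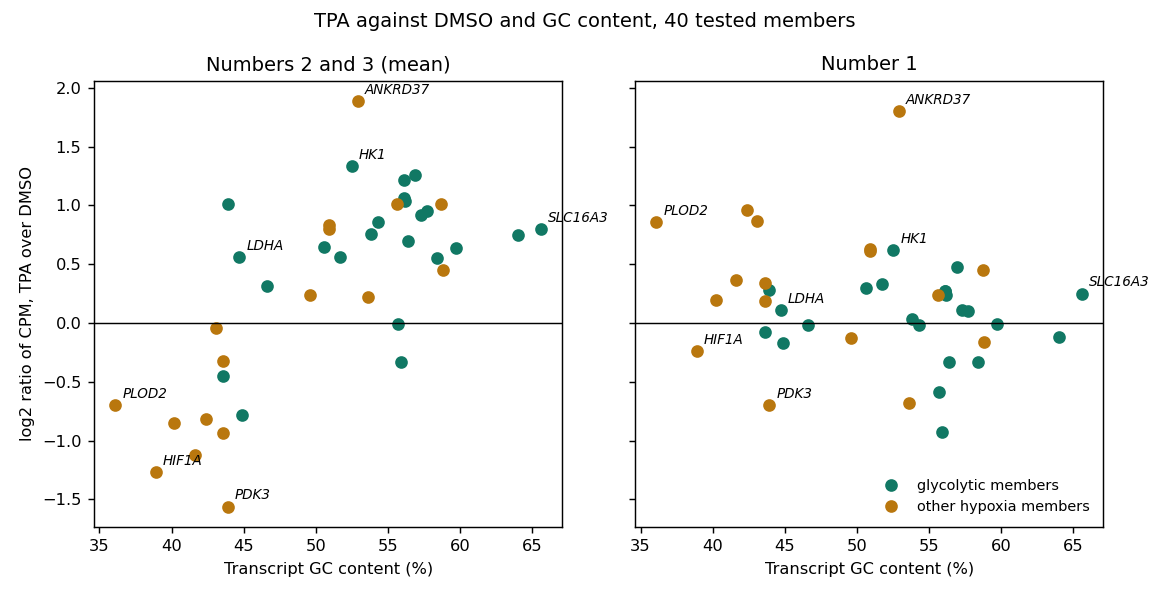
Log2 ratio of CPM, TPA over DMSO, against transcript GC content in percent for the 40 tested members, as the mean of numbers 2 and 3 (left) and in number 1 (right), with glycolytic members in green and other hypoxia members in brown. On the left, members under 45% GC such as HIF1A, PLOD2 and PDK3 mostly lie below 0 and members over 50% mostly above it. On the right 25 members lie above 0 and 15 below, with ANKRD37 the highest.

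GC content moved with these ratios. Median transcript GC content was 55.9% in the glycolytic members, 43.9% in the other hypoxia members tested and 48.8% in all tested genes with a value. In number 2 the median log2 ratio of all expressed genes was -0.98 in the tenth of lowest GC content and 0.66 in the tenth of highest, in number 3 it was -0.9 and 0.49, and in number 1 it was 0.11 and -0.07. HIF1A (38.9% GC) and PLOD2 (36.1%) stood at the low end, and SLC16A3 (65.6%) and PFKL (64.0%) at the high end. In the blocked fit the medians were 0.52 for the glycolytic and -0.07 for the other hypoxia members, and with the GC trend removed they were 0.26 and 0.21, while all genes had -0.15.

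The GC-corrected fit called 12 of 40 members higher, against 9.85% of all genes, and 4 lower, against 11.4%. The 12 were SLC2A1, HK1, TPI1, PGK1, ENO2, PKM, ANKRD37, BNIP3, BNIP3L, NDRG1, ADM and P4HA2, and the 4 were PDK3, PFKFB4, HIF1A and EPAS1. They include a glucose importer, glycolytic enzymes, a collagen-modifying enzyme and other hypoxia targets. Among the 12, BNIP3L had log2 ratios of 0.87, -0.14 and 0.05 in numbers 1, 2 and 3. Without both libraries numbered 1 its log2 fold change was 0.11 (edgeR adjusted p = 0.283). Relative to the unblocked fit the sign of 9 members turned, among them GPI, PFKFB3 and CA9 (to -0.02, -0.12 and -0.13) and PLOD2, P4HA1 and EGLN1 (to 0.39, 0.07 and 0.21). It raised PGK1 and LDHA, which have 43.9% and 44.7% GC, to 1.11 and 0.67. ANKRD37, HK1, SLC2A1 and PDK3 were called in the same direction in both the blocked and the GC-corrected fit, which use the same libraries.

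**Figure D4:**
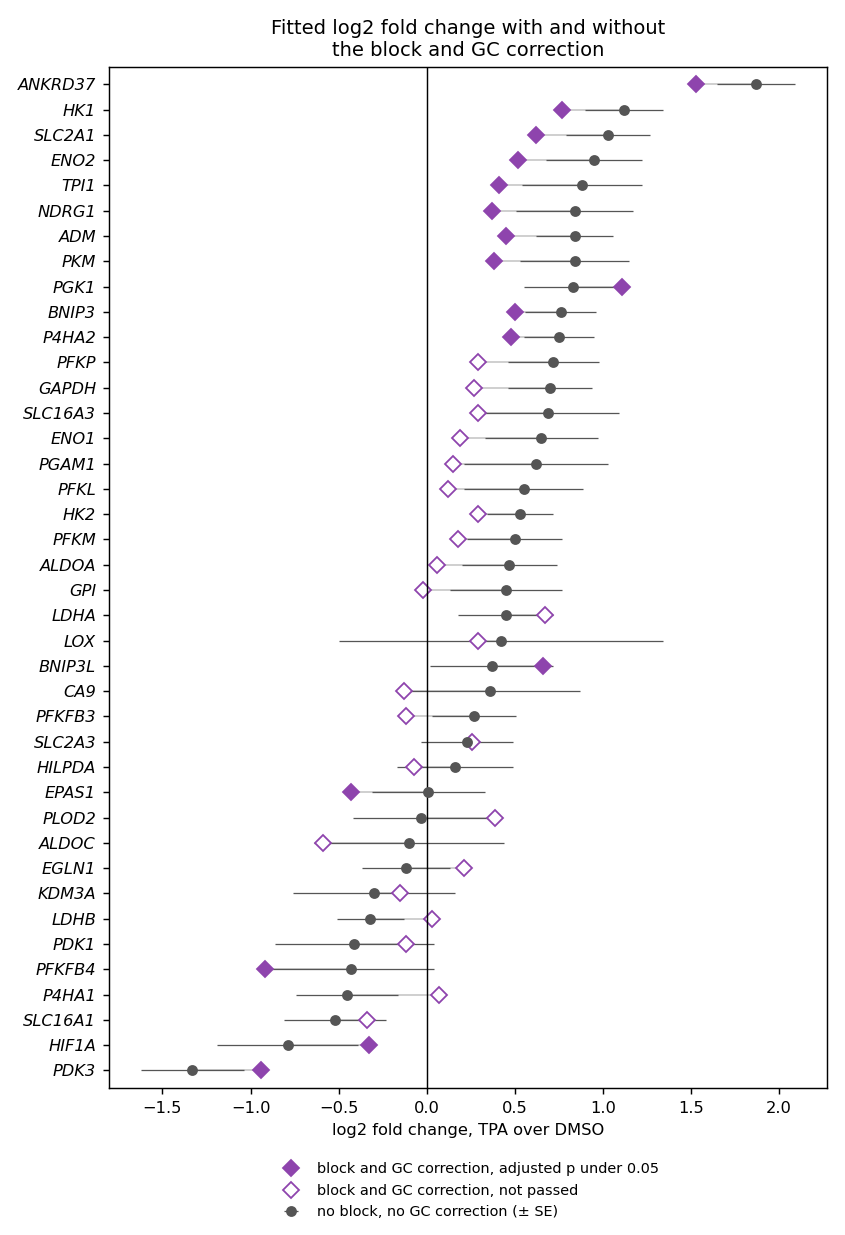
Fitted log2 fold change, TPA over DMSO, of the 40 tested members in the unblocked fit (grey circles, ± SE) and in the blocked fit with GC correction (purple diamonds, filled where the adjusted p is under 0.05). Most glycolytic members move toward 0 with the correction, and 12 members to the right of 0 and 4 to the left are filled.

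Leaving out both libraries numbered 1, the close pairs of libraries that remain gave 27 members higher, against 32.2% of all genes, and 8 lower, against 33.3%. Glycolytic members made up 19 of the 27, and their median was 0.9 against 0.11 in the other hypoxia members. The members of lower glycolysis were all called higher in that fit, 6 of 6. In that fit 65.5% of all genes were called in either direction.

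The balance between related genes was read as the log2 ratio of their counts within a library, which does not depend on library size. Of 15 ratios 3 did not overlap between the groups. Among all single genes tested, 14.3% were higher in TPA without overlap and 15.2% lower, and no share over other gene pairs was computed. The count of 3 is therefore not read as a trait of these pairs. An exact two-sided permutation test over 3 against 3 libraries cannot go below 0.1. HK2 over HK1 was -0.73, -1.33 and -1.18 in TPA and -0.41, -0.48 and -0.66 in DMSO, so the share of HK1 was larger in every TPA library (difference -0.56, exact permutation p = 0.1, 0.5 adjusted over the 15). SLC2A3 over SLC2A1 was -1.94, -1.98 and -1.82 in TPA and -1.44, -0.89 and -1.01 in DMSO, a difference of -0.8 with the same exact p. P4HA2 over P4HA1 was 0.47, 1.63 and 1.59 in TPA and 0.04, -0.17 and 0.08 in DMSO, a difference of 1.24, also at the smallest p possible.

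Other ratios overlapped. LDHB over LDHA was -2.15, -3.23 and -3.23 in TPA and -1.96, -2.23 and -2.2 in DMSO, lower in TPA in each of the 3 numbers. EPAS1 over HIF1A was -0.65, 1.93 and 1.67 in TPA and -0.21, 0.36 and 0.24 in DMSO, with TPA 1 below and TPA 2 and TPA 3 above every DMSO library. SLC16A3 over SLC16A1 was -2.19, 0.15 and -0.2 in TPA and -2.61, -1.84 and -1.37 in DMSO. The transcripts of SLC16A3 have 20.7 percentage points more GC than those of SLC16A1, those of EPAS1 14.7 more than HIF1A and those of P4HA2 10.6 more than P4HA1, while SLC2A3 has 10.2 fewer than SLC2A1 (-10.2) and HK2 and HK1 differ by -1.9. The ratios of CA12 to CA9 and of EGLN3 to EGLN1 rest on counts under 10 and are not read.

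**Figure D5:**
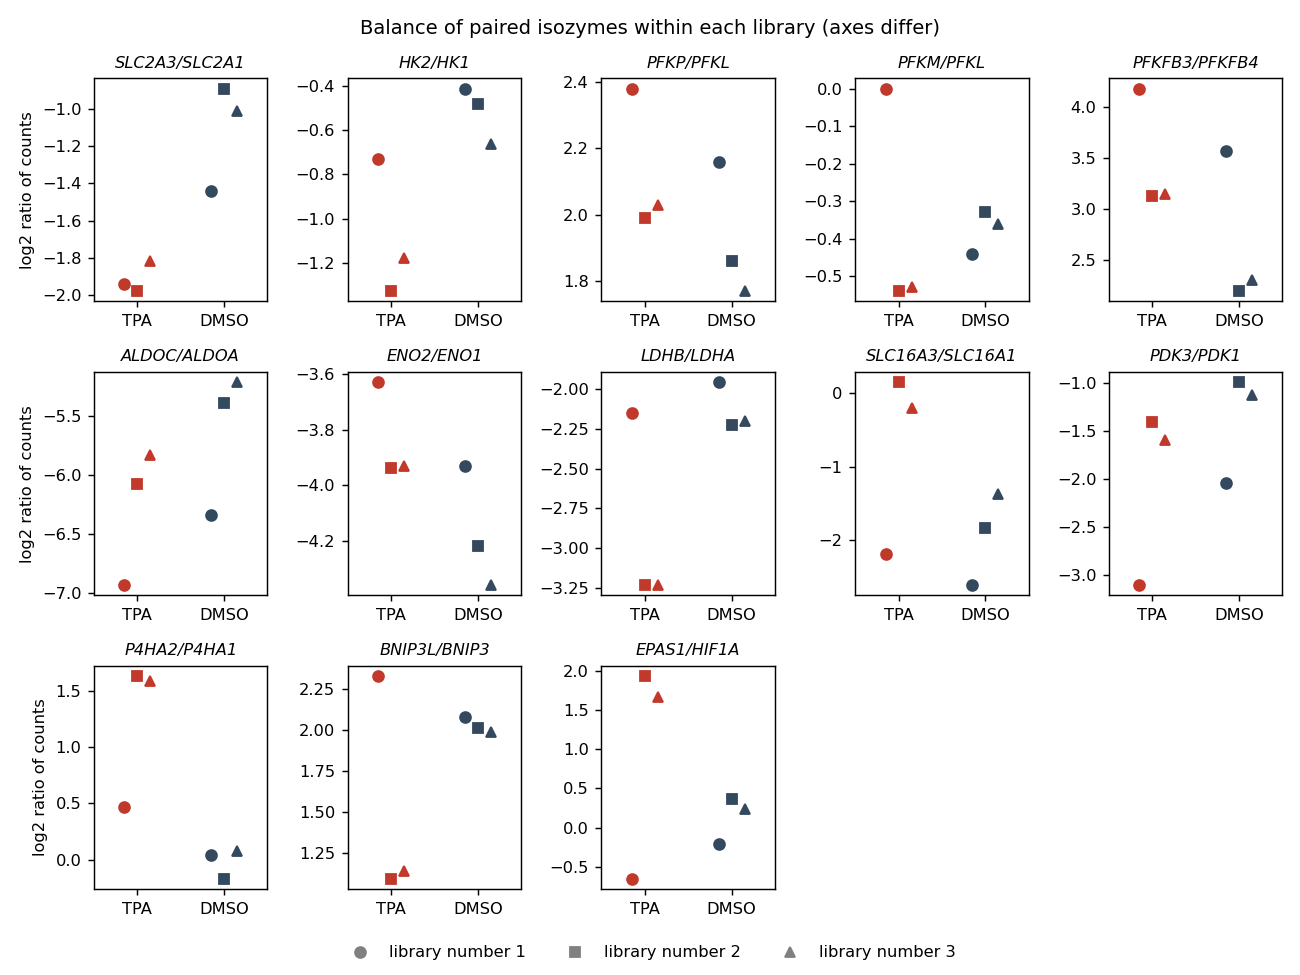
Log2 ratio of counts of 13 pairs of related genes within each library (vertical axes differ between panels), TPA left and DMSO right, with the library number as the marker shape. HK2/HK1, SLC2A3/SLC2A1 and P4HA2/P4HA1 separate the groups, and in EPAS1/HIF1A and SLC16A3/SLC16A1 TPA 1 lies with the DMSO libraries or below them.

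In 5 lists of neighbouring pathways 0 genes passed in the unblocked fit (edgeR). At an unadjusted p under 0.05 there were 7 of 27 further hypoxia targets, 2 of 12 regulators of the factors, 2 of 14 further glycolysis genes, 4 of 26 genes of pyruvate dehydrogenase and the citric acid cycle, and 0 of 7 pentose phosphate genes, against 11.3% of all genes higher and 10.7% lower. DESeq2 called 6 genes of these lists higher, against 7.8% of all genes, and 3 lower, against 4.19%. These counts lie near the background, and the genes named next are described one by one and not as a result about their lists. Of 27 tested further hypoxia targets, 2 were higher in the blocked fit, against 4.58% of all genes, and 2 lower, against 6.52%. ANKZF1, a ribosome quality control factor, had 66.6, 96.8 and 94.1 CPM in TPA and 34.6, 43.9 and 43.7 CPM in DMSO (blocked 1.06, edgeR adjusted p = 0.0194), and STC2, a secreted glycoprotein gene named after its values were seen, was also higher (0.95, 0.0428). AK4, a mitochondrial adenylate kinase, was lower at 91.6, 65.1 and 71.8 CPM in TPA and 115, 197 and 160.1 CPM in DMSO (-1.03, 0.0426), as was the nuclear receptor gene RORA (-1.53, 0.0294). Among 12 tested regulators of the factors, ARNT2, a beta subunit relative, was called higher in the blocked fit, with 2.76, 6.96 and 5.97 CPM in TPA and 1.15, 1.62 and 1.3 CPM in DMSO (1.87, edgeR adjusted p = 0.00698).

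Of 14 tested further glycolysis genes SLC2A6, a glucose transporter relative, was called higher in the blocked fit (0.85, edgeR adjusted p = 0.0467). In the list of pyruvate dehydrogenase and the citric acid cycle 1 of 26 was called, MPC1, a subunit of the mitochondrial pyruvate carrier, which was lower with 1.56, 3.13 and 2.9 CPM in TPA and 5.1, 5.77 and 6.06 CPM in DMSO (-1.2, edgeR adjusted p = 0.0272). MPC1 did not pass in the GC-corrected fit (-0.83, edgeR adjusted p = 0.118). Of 7 pentose phosphate genes 0 were called in the unblocked or blocked fit. The median log2 fold changes of these lists in the unblocked fit ran from 0.12 (citric acid cycle) to 0.36 (further glycolysis genes), between those of all genes and of the glycolytic members.

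Several members share sequence with other genes. Pseudogenes named after them are annotated for 16 members, 62 for GAPDH, 39 for BNIP3 and 13 for PGAM1, so reads may be split or lost and their levels are uncertain. In the annotation 7 members share 10% or more of their exon bases with another gene. ALDOA shares 53.5%, in part with AC093512.2 on the same strand, which had 3.41 to 8.5 CPM. LDHB shares 33.4% with AC010197.2, which had at most 0.0658 CPM. How reads on shared bases were counted is not stated here, so a low partner level does not show that these members lost few reads. Their levels per kilobase are uncertain for that reason too.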

How the data were processed

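The authors deposited raw read counts per gene for each library; HISAT2 2.1.0, HTSeq 0.12.4 and the build GRCh38 are named in the submitters' processing notes. Library totals were 27702329 to 33965547, and a count of 0 allows up to 0.0915 to 0.109 CPM (3 counts, counting error only).

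Counts were tested with edgeR 4.0.16 (R 4.3.3) by quasi-likelihood, with TMM factors, filterByExpr, Benjamini-Hochberg adjustment over 21825 genes and a threshold of 0.05. Alternatives were other scaling and filters, DESeq2 1.42.0, limma-voom (limma 3.58.1), a library-number block with and without GC correction (a spline with 5 degrees of freedom per library) and leaving out libraries. Same-numbered TPA and DMSO libraries deviated together (correlations 0.546, 0.345 and 0.369), but libraries 2 and 3 did so as much when crossed (0.356 and 0.374). These values set number 1 apart from numbers 2 and 3 and do not show how libraries 2 and 3 pair. The block takes the numbers as pairs, a choice made from these data that the labels do not state. GENCODE 29 gave positions, and GC content was matched for 96.3% of tested genes. On simulated counts (200 changed genes, 21201 tested) 4.67% of the 107 calls of the unblocked fit were unchanged genes. In simulations with the spread of the other fits, it was 6% of 150 calls of the blocked fit and 7.25% of 193 calls of the GC-corrected fit.

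Members and lists were chosen with earlier results of these data known. The rule named every member called in the unblocked or blocked fit, the member of each role with the highest mean CPM, and up to 3 genes of each other list by adjusted p; library values of other members were added after they were seen. RefSeq promoters matched 37 of 42 members.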

Additional observations from a re-analysis of the deposited data

Results flagged for a closer look

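For 30 of the 40 tested members the log2 effect of TPA in numbers 2 and 3 minus that in number 1 is listed here as a value. They were picked by an interaction fit added after libraries 1 had been seen to stand apart. The share of all genes that this fit would pick is not given here, so 30 of 40 is not read as a trait of the members. Number 1 has 1 library in each group and the spread of the fit comes from the close libraries 2 and 3, so its p-values are not read and the differences are not shown to exceed replicate error. Among the transporters the difference was 0.78 for SLC2A1, 0.55 for SLC16A3 and -0.6 for SLC16A1. In upper glycolysis it was 0.71 for HK1, 1.03 for GPI, 0.87 for PFKL, 0.85 for PFKP, 0.89 for PFKFB3, 0.61 for PFKFB4, 0.66 for ALDOA and 0.79 for TPI1. In lower glycolysis it was 0.8 for GAPDH, 0.73 for PGK1, 0.73 for PGAM1, 0.88 for ENO1, 0.94 for ENO2 and 0.8 for PKM, and it was 0.45 for LDHA. For the other hypoxia members, the difference was positive for CA9 (0.61), EPAS1 (0.91), NDRG1 (0.77) and ADM (0.57). It was negative for PDK1 (-1.49), PDK3 (-0.87), HIF1A (-1.03), P4HA1 (-1.06), PLOD2 (-1.54), LOX (-1.87), BNIP3L (-0.92) and KDM3A (-1.28). Across all expressed genes transcript GC content moved with the ratios of numbers 2 and 3, and its part in the differences listed here was not tested.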

How the results depend on the processing

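Leaving out 1 library gave 0 to 5577 genes higher and 0 to 6297 lower. It gave 0 to 25 members higher and 0 to 8 lower, and 0 to 41 genes of the other lists higher and 0 to 15 lower. All genes gave 5577 higher and 6297 lower without TPA 1, 24 and 1 without TPA 2, 2 and 0 without TPA 3, 101 and 38 without DMSO 1, and 0 and 0 without DMSO 2 or DMSO 3. The glycolytic median ran from 0.39 to 0.96 and that of the other hypoxia members from -0.03 (without TPA 1) to 0.23 (without DMSO 3), which crossed 0. Other ranges that crossed 0 were those of ALDOC (-0.4 to 0.4), BNIP3L (-0.03 to 0.59), EGLN1 (-0.22 to 0.05), EPAS1 (-0.19 to 0.4), HILPDA (-0.02 to 0.53), LOX (-1.35 to 1.01), PFKFB4 (-0.69 to 0.04) and PLOD2 (-0.51 to 0.26), and the ratios PFKM/PFKL (-0.16 to 0.12) and EGLN3/EGLN1 (-1.02 to 0.54). Without both libraries numbered 1, all genes gave 7216 higher and 7475 lower, members 27 and 8, the other lists 53 and 17, with ALDOC at 0.15, LOX at -0.73 and PFKM/PFKL at -0.19.

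With the replicate block all genes gave 1000 higher and 1423 lower, members 3 and 1, the other lists 4 and 3, with EPAS1 at -0.07 and LOX at -0.12. With the replicate block and GC correction the counts were 2070 and 2405, 12 and 4, and 13 and 7, and GPI (-0.02), PFKFB3 (-0.12), LDHB (0.03), CA9 (-0.13), EPAS1 (-0.43), EGLN1 (0.21), P4HA1 (0.07), PLOD2 (0.39) and HILPDA (-0.07) changed sign. DESeq2 gave 1702 and 915, 8 and 1, and 6 and 3, a median of all genes of -0.01, ALDOC at 0.02 and PLOD2 at 0.06. With no filter there were 429 genes higher and 202 lower, 2 members higher and 1 gene of the other lists higher, with ALDOC at 0.02 and PLOD2 at 0.04. Limma-voom gave 130 genes lower, a median of -0.07 for other hypoxia members, EPAS1 at -0.07 and LOX at -0.31. With library size alone 219 genes were lower, the median was -0.11 for other hypoxia members and -0.36 for all genes, and SLC2A3 (-0.03), EPAS1 (-0.26) and HILPDA (-0.11) changed sign. RLE factors gave a median of all genes of -0.01, ALDOC at 0.02 and PLOD2 at 0.06, and the stricter filter gave EPAS1 at -0.08. With ACGTG alone the promoter share was 21.6% of all promoters, 43.2% of members, 38.1% of glycolytic and 50% of other hypoxia members. The cause of these changes was not tested. Of the members' log2 fold changes under all alternatives, 463 kept direction and side of the threshold, 92 newly passed, 4 no longer passed and 40 changed sign.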
